A study of Mus musculus with 6 samples.

Results

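Zfp is the mouse prefix for zinc finger protein, and this set of genes holds every symbol made of Zfp and a number whose mean abundance in the control libraries was at least 2 TPM, a relative transcript abundance corrected for length. Of 375 such symbols among the 55291 genes of the tables, 192 passed, 18 of them numbered 900 or above and 174 below 900. The control values chose the members, so their control levels are given only as a description. Zfp59 (mean 2.03 TPM in the controls) and Zfp28 (2.06 TPM) lay just inside the threshold, and Zfp626 (1.97 TPM) and Zfp784 (1.92 TPM) just outside it. Of the 183 symbols left out, 34 had no count in any library.

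The 6 libraries came from RAW264.7, an established mouse macrophage-like line that becomes osteoclasts, the bone-resorbing cells, when given the cytokine RANKL. Every culture carried a short hairpin and was kept with 50 ng/mL RANKL over 4 days. Of the groups, shCtrl (n = 3) had a control hairpin, with the genotype label WT, and shUSP8 (n = 3) had a hairpin that knocks down Usp8, a deubiquitinating enzyme of endosomes. The samples used here hold no culture without RANKL and no second hairpin named by the labels. No label ties the 3 libraries of a group to separate cultures. The p-values therefore rest on a spread between libraries that could be technical.

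Total expected counts ran from 19973522 to 20213939 per library. Usp8 was 136 ± 5.86 CPM (counts scaled by library size and composition; SD, n = 3) in shCtrl and 33.9 ± 1.68 CPM in shUSP8, a 4.00-fold fall. Macrophage and osteoclast markers were present in every library, while Cd3d, Cd3e, Cd3g and Ms4a1 of lymphocytes were at 0 TPM in all. Of 5 macrophage markers 3 rose and 2 fell, with a summed TPM of 3963 to 4265 in shCtrl and 6016 to 6630 in shUSP8. Of 8 osteoclast markers 4 fell and 0 rose, with sums of 9934 to 10799 and 9394 to 9736. The part of this shift in the results below was not tested. Fewer cells of a type and less RNA per cell cannot be told apart in such bulk samples.

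Most numbered Zfp genes encode proteins with C2H2 zinc fingers, small folds held by a zinc ion between cysteine and histidine pairs, strung in arrays that read DNA. Many of the proteins also carry a KRAB domain, which recruits the corepressor TRIM28 (KAP1) and through it the histone methyltransferase SETDB1, and silences transposons and nearby genes. KRAB zinc finger genes multiplied by local duplication, so they lie in clusters of close relatives. The number in a symbol does not name a class of protein.

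Promoters of the 5 genes numbered 900 or above that fell are shown because they lie in the same parts of chromosomes 2 and 17. The sequences are from the RefSeq promoter table (GRCm38.p6), in which 163 of the 192 members matched, and end at the RefSeq start site or at the GENCODE gene boundary where that lies further upstream. Zfp973, Zfp971 and Zfp931 lie within a stretch of chromosome 2, which held no run of at least 3 members with gaps of at most 1 Mb. Zfp948 and Zfp946 lie within such a run on chromosome 17. Zfp229 and Zfp942, which were not called, lie between them. Capitals mark CCAAT (the box bound by NF-Y) or CCGGAA (a core favoured by ETS factors) on either strand. The windows are chr2:176670322-176670521 (+), chr2:178023084-178023283 (+), chr2:178078477-178078625 (-), chr17:21566778-21566977 (+) and chr17:22424002-22424201 (+), in the order of the lines.
Zfp973: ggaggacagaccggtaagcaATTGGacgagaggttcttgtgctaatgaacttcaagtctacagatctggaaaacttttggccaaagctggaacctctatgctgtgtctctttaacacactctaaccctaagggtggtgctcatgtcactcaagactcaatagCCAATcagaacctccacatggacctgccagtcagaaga
Zfp971: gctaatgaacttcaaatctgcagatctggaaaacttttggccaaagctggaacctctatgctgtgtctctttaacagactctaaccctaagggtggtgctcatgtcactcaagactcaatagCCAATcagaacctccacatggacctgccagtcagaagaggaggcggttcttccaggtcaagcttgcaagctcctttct
Zfp931: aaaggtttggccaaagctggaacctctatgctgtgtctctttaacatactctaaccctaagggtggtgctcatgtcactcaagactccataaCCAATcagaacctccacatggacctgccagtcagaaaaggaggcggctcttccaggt
Zfp948: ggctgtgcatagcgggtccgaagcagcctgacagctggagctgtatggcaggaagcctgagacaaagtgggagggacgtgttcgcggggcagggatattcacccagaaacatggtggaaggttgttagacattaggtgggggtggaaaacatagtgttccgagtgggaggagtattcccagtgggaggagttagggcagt
Zfp946: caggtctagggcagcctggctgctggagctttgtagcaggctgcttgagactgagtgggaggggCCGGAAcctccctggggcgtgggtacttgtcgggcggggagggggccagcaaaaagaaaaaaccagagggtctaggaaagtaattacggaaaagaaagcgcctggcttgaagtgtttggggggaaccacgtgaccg

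The 3 chromosome 2 promoters share sequence at different distances from the start. Over the 200 bases before each RefSeq start, Zfp973 and Zfp971 were 65.4% identical in a global alignment, Zfp971 and Zfp931 71.7%, and Zfp973 and Zfp931 47.0%. A run of 41 bases was shared by all 3, and the CCAAT nearest the start began 38, 78 and 108 bases before the start of Zfp973, Zfp971 and Zfp931. In the full windows of 300 bases (250 before to 50 after the start), CCAAT on either strand was in 15 of 20 promoters of members numbered 900 or above (75.0%), in 46.1% of all 204 member promoters and in 37.4% of all promoters in the table. CCGGAA was in 55.0%, 37.3% and 14.9% of them in the same order. The interferon-type motif GAAANNGAA was in 0 of the 20 windows and in 8.56% of all promoters, and TGACG, the core of the cAMP-response element, in 35.0% and 20.8%. Among promoters of all genes tested with at least 2 TPM in shCtrl, the shares were 38.3% for CCAAT, 30.3% for CCGGAA, 6.79% for GAAANNGAA and 33.0% for TGACG, so TGACG was about as frequent there as in members numbered 900 or above. The median number of CpG was 10.5 in members numbered 900 or above, 17 in all members and 21 in those genes. A match is a description of the letters, not of a bound site.

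The Zfp genes were numerous but low. Together they held 0.194% ± 0.0038 of all TPM in shCtrl and 0.202% ± 0.012 in shUSP8 (SD, n = 3), so the groups differed by less than the spread of the shUSP8 libraries. Of the 192 members, 81 had a control mean under 5 TPM and 18 had at least 20 TPM. Zfp106, which encodes an RNA-binding protein, was highest at 115 TPM, followed by Zfp207 (BuGZ, which binds Bub3 at kinetochores) at 84.2, Zfp710 at 57.3, Zfp263 at 43.5, Zfp91 at 43.4 and Zfp330 at 40.5 TPM. No member numbered 900 or above had a control mean of 10 TPM or more, and their summed share of TPM was 0.00758% ± 0.00031 in shCtrl and 0.00676% ± 0.00096 in shUSP8.

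More Zfp genes fell than rose after Usp8 knockdown, with small changes. By edgeR's quasi-likelihood test (adjusted p under 0.05 over all 12440 genes tested), 35 of 192 members fell (18.2%) and 9 rose (4.69%). All 192 were tested. Over all genes tested, 14.9% fell and 17.8% rose. Over those with at least 2 TPM in shCtrl, called expressed genes below, 16.8% fell and 16.4% rose. The share that fell was therefore near the background, and the share that rose was below it. The median log2 fold change of the members was -0.09, against -0.00 over all genes tested, and reached -0.01 when library totals alone set the scale and 0.02 on log2(TPM + 1). On that TPM scale the median of all expressed genes was itself 0.11. In 61 members every shUSP8 library lay under every shCtrl library in CPM, and in 16 every one lay above, where 25.4% and 23.2% of expressed genes did so.

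The calls depended on the scale and on single libraries. With library totals alone, 16 members rose and 16 fell (background 24.6% and 10.4% of expressed genes), and on log2(TPM + 1) 11 rose and 4 fell (17.5% and 4.17%). With offsets for effective length, 6 rose and 18 fell (10.9% and 11.2%), and 6 and 13 when shUSP8_1 was left out of that fit (10.1% and 10.9%). DESeq2 called 3 rises and 25 falls (12.6% and 14.5%), and limma on log2(TPM + 0.1) called 13 and 3 (17.7% and 4.1%). Without a filter on low TPM, limma on log2(TPM + 1) called 3 rises and 0 falls (12.2% and 3.0%). Without shUSP8_1, 12 rose and 30 fell (17.7% and 18.8%). In 6 fits that each left out 1 library, 12 of the 35 falls and 2 of the 9 rises were called every time. The falls numbered 24 without shCtrl_1 (background 12.7%), 16 without shCtrl_2 (11.3%), 13 without shCtrl_3 (11.8%), 38 without shUSP8_2 (16.8%) and 23 without shUSP8_3 (11.9%). The rises numbered 4, 3, 4, 5 and 3 in these fits (background 12.8%, 11.9%, 12.5%, 15.8% and 12.3%). The choice of members by control level bears on the split as well: chosen by a mean of at least 2 TPM in shUSP8, 191 members held 14 rises and 30 falls, and chosen by the mean of all 6 libraries, 193 held 12 and 31. The background was not chosen anew in these ways.

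**Figure D1:**
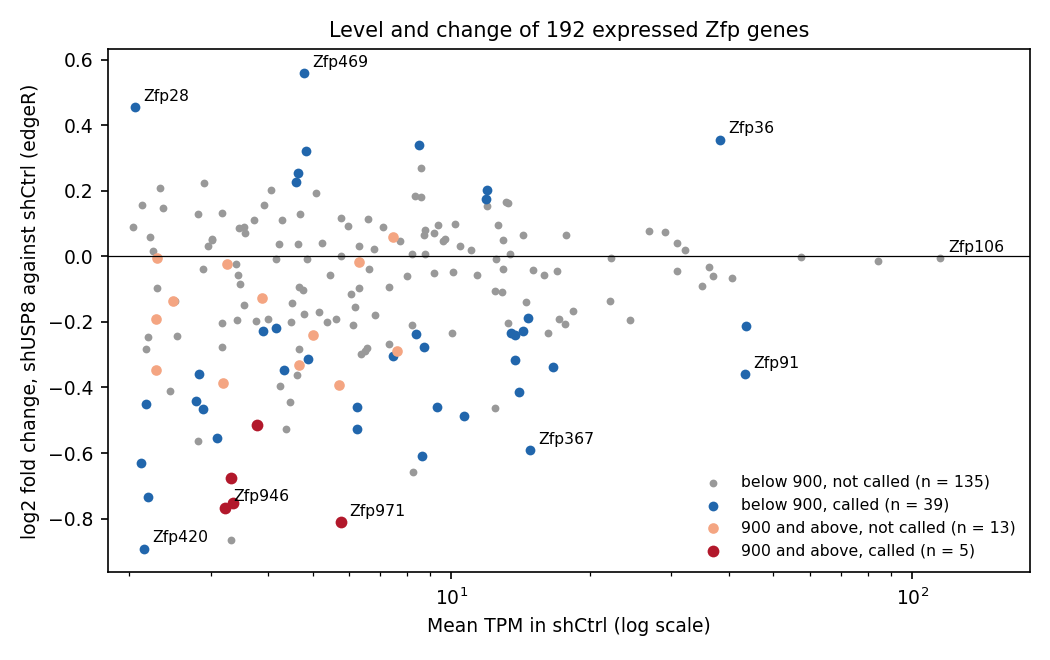
Mean TPM in shCtrl (log axis) against the edgeR log2 fold change, shUSP8 against shCtrl, for 192 genes. Blue and dark red points are called genes below 900 and from 900 upward, grey and light red points are not called. The 5 called genes numbered 900 or above lie under 10 TPM and between -0.81 and -0.51.

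Members numbered 900 or above lay lower than the rest. Among the 18, edgeR called 5 falls (27.8%) and 0 rises, where 16.8% of expressed genes fell and 16.4% rose. Of the 18, 17 had a negative log2 fold change, and the median was -0.31 (range -0.81 to 0.06). None of the 18 was higher at an unadjusted p under 0.05. DESeq2 and limma on log2(TPM + 1) called 0 rises too (12.6% and 17.5% of expressed genes rose). Among the 174 below 900, 30 fell (17.2%), 9 rose (5.17%) and the median was -0.06. Without shCtrl_1, shCtrl_2 or shCtrl_3 the falls among the 18 numbered 3, 2 and 1, where 12.7%, 11.3% and 11.8% of expressed genes fell. The split at 900 was proposed with these results known, so its difference was not tested. Scaling by library totals gave a median of -0.23 from 900 upward and 0.02 below, and log2(TPM + 1) gave -0.17 and 0.05. A split at 800 gave 31 members with 7 falls (22.6%) and a median of -0.18. A split at 950 gave 11 with 2 falls (18.2%, near the 16.8% of expressed genes) and -0.19. Over blocks of 100 numbers below 900 the medians did not fall in order: the lowest was -0.20, for 400 to 499, the block from 1 to 99 was at -0.19, and the highest was 0.01.

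The difference was largest in 1 library. Relative to each gene's shCtrl mean in log2 CPM, the median of the 18 was -0.61 in shUSP8_1, -0.12 in shUSP8_2 and -0.12 in shUSP8_3, and -0.06, 0.02 and 0.08 in shCtrl_1 to shCtrl_3. For the 174 the shUSP8 medians were -0.12, -0.04 and -0.03. All 3 shUSP8 libraries were therefore on the same side for both groups, with shUSP8_1 far below the others for the higher numbers. In log2(TPM + 1) the shUSP8 medians of the 18 were -0.39, -0.12 and -0.06, those of the 174 were -0.02, 0.08 and 0.11, and those of all expressed genes 0.07, 0.11 and 0.16. shUSP8_1 was the lowest of the 6 libraries for 11 of the 18 (61.1%), for 85 of all 192 members (44.3%) and for 21% of expressed genes. The 18 had a median transcript GC of 40.9%. Among expressed genes with a transcript GC under 42%, shUSP8_1 was the lowest for 50.8%, and from 42% to 46% for 35.9%. Without shUSP8_1 the median of the 18 was -0.12 with 4 falls (18.8% of expressed genes fell), and that of the 174 was -0.03.

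**Figure D2:**
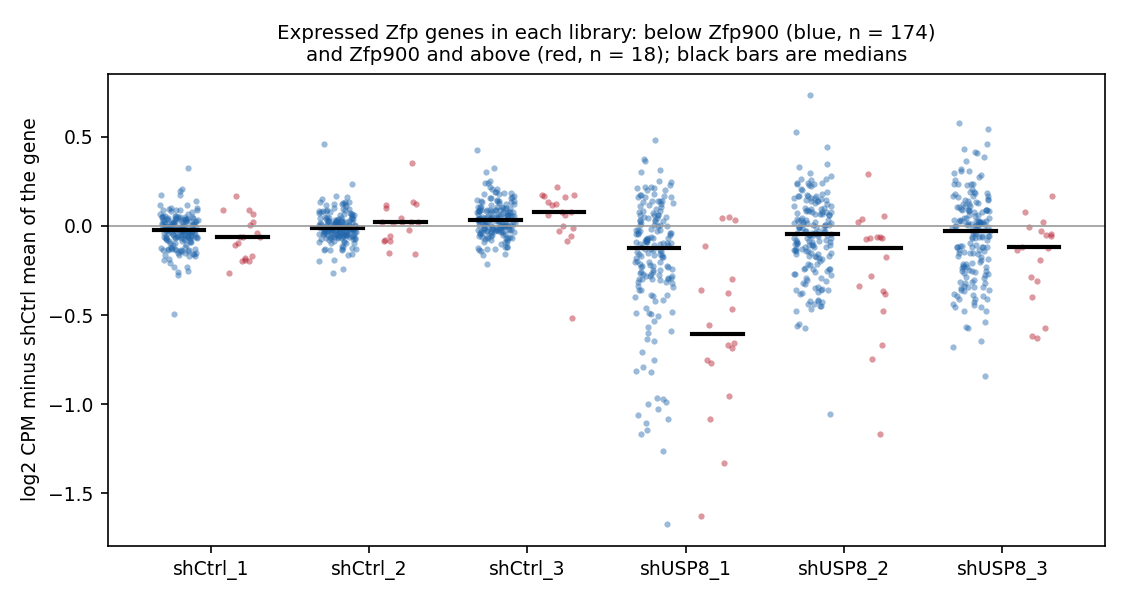
Log2 CPM of each gene minus its shCtrl mean, for 174 genes below Zfp900 (blue) and 18 from Zfp900 upward (red), by library. Black bars are medians, which lie at -0.12 and -0.61 in shUSP8_1 and no lower than -0.12 in the other libraries.

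The 5 falls were in low genes whose protein functions are little described. Zfp973 was 3.09, 2.73 and 2.89 CPM in shCtrl_1 to shCtrl_3 and 1.81, 1.79 and 1.86 CPM in shUSP8_1 to shUSP8_3. The 3 knockdown libraries were nearly equal and all below the controls (log2 fold change -0.68, SE 0.17, adjusted p = 0.0100). It was the only one of the 5 called in every fit that left out a library, but DESeq2 did not call it (adjusted p = 0.0662), and it rested on 36.6 to 60.7 expected counts per library. Zfp931 was 2.53, 2.78 and 2.89 CPM in shCtrl and 1.66, 1.16 and 2.05 CPM in shUSP8. Here shUSP8_2 was the lowest and the groups did not overlap (-0.75, SE 0.22, adjusted p = 0.0207). Zfp971 was 5.11, 4.95 and 4.60 CPM in shCtrl and 1.51, 3.72 and 3.13 CPM in shUSP8. Its lowest library was shUSP8_1, and the log2 fold change moved from -0.81 (SE 0.26, adjusted p = 0.0442) to -0.51 (adjusted p = 0.0160) without it. Leaving out any 1 shCtrl library or shUSP8_3 ended the call of Zfp971 (adjusted p = 0.0948 to 0.138), as did library totals (0.0650), offsets (0.0704) and log2(TPM + 1) (0.125).

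On chromosome 17, Zfp946 was 5.47, 6.92 and 6.56 CPM in shCtrl and 2.44, 4.49 and 4.2 CPM in shUSP8 (-0.77, SE 0.20, adjusted p = 0.0162). Zfp948 was 8.05, 7.12 and 8.73 CPM in shCtrl and 4.05, 6.28 and 6.40 CPM in shUSP8 (-0.51, SE 0.16, adjusted p = 0.0338). The groups did not overlap in either gene, and shUSP8_1 was lowest. Without that library Zfp946 stayed called at -0.54 (adjusted p = 0.00873), and Zfp948 was at -0.33 (adjusted p = 0.0526). Of the 6 fits that left out a library, Zfp946 was called in 4, and Zfp948 and Zfp931 in 3 each. Of the 13 others numbered 900 or above, none was called, and their values ran from -0.39 for Zfp959 and Zfp967 to 0.06 for Zfp961. Zfp967, next to Zfp973 on chromosome 2, had 17.6 to 38.9 expected counts per library and overlapping groups.

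**Figure D3:**
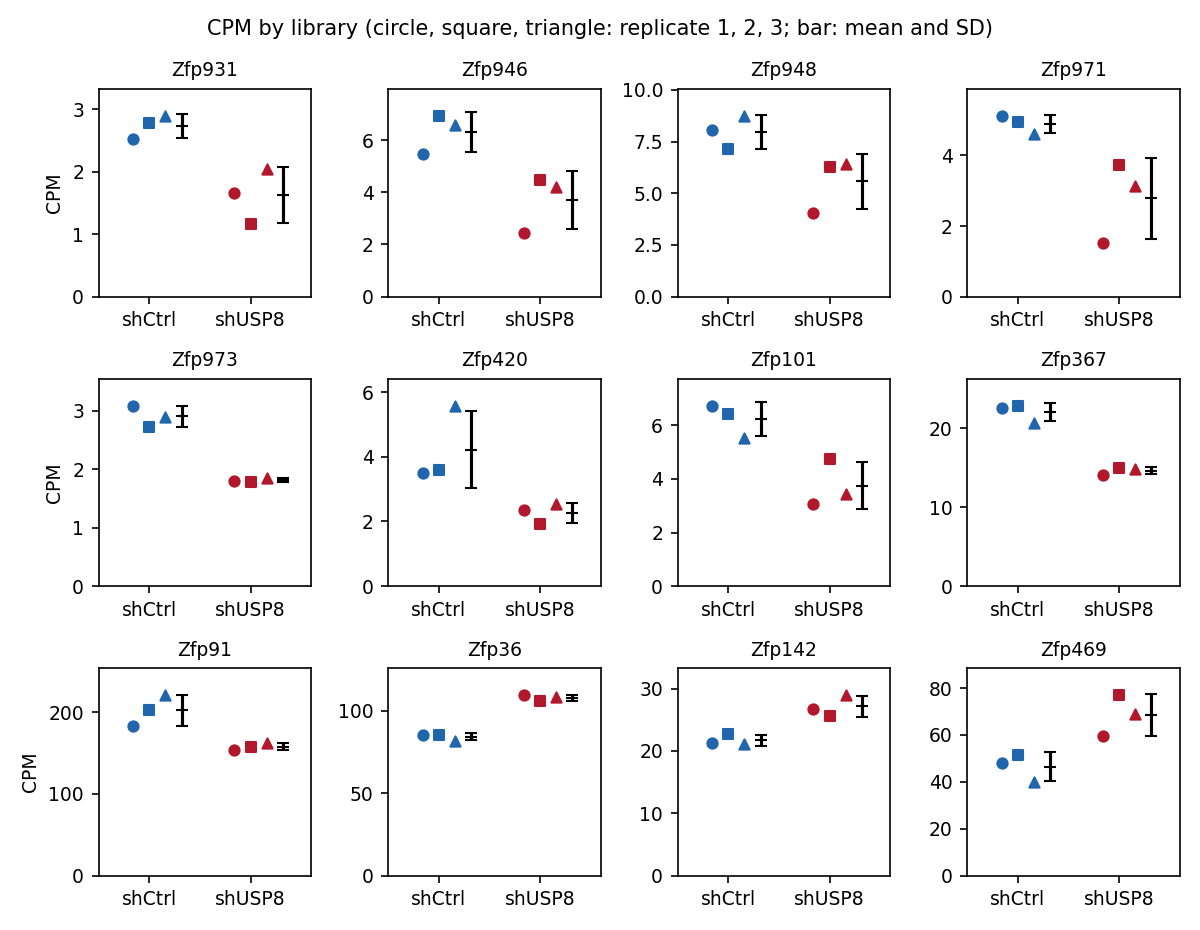
CPM in each library for 12 members, with circles, squares and triangles for replicates 1, 2 and 3 and bars for the mean and SD of each group. In all 12 the shCtrl and shUSP8 points do not overlap, which the naming rule required of the members below 900 other than Zfp36 and Zfp91. In Zfp946, Zfp948 and Zfp971 the shUSP8_1 circle is well under the other knockdown points.

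Below 900, the largest fall was in Zfp420, at 3.49, 3.59 and 5.58 CPM in shCtrl and 2.34, 1.93 and 2.54 CPM in shUSP8. It was 1.86-fold lower (adjusted p = 0.00654), with uneven control libraries, of which shCtrl_3 was high. No control overlapped the knockdown, but the rule took the largest falls and rises below 900 from called genes without overlap. Zfp101 was 6.73, 6.42 and 5.53 CPM in shCtrl and 3.07, 4.73 and 3.42 CPM in shUSP8 (1.66-fold lower, adjusted p = 0.00451). Zfp367 was 22.5, 22.8 and 20.7 CPM in shCtrl and 14.1, 15 and 14.8 CPM in shUSP8. That fall was even across libraries (1.51-fold, adjusted p = 7.2e-05) and had the smallest p of the named falls. Zfp275 on the X chromosome was 49.3, 50.9 and 54.8 CPM in shCtrl and 32.9, 38.5 and 39.2 CPM in shUSP8 (1.40-fold lower, adjusted p = 0.000371). All 4 were called in every fit that left out a library, and with effective-length offsets. By limma on log2(TPM + 1) none of the 4 was called (adjusted p = 0.0610 to 0.113). Of the 35 falls, 4 were called there, namely Zfp775, Zfp931, Zfp946 and Zfp973.

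The other large falls leaned on shUSP8_1. Zfp748, Zfp52 and Zfp120 had log2 fold changes of -0.63, -0.61 and -0.53, and without shUSP8_1 they were at -0.44, -0.41 and -0.35, all still called. Zfp52 and Zfp120 lost their calls without any 1 of the shCtrl libraries (adjusted p = 0.0858 to 0.141 and 0.0862 to 0.121). Zfp748 lost its call without shCtrl_1 or shCtrl_3 (adjusted p = 0.0788 and 0.0576), and Zfp52 with the replicate number as a block (adjusted p = 0.0591). Their groups did not overlap, as the rule required, and shUSP8_1 was the lowest library in each. Zfp472, at -0.55 (adjusted p = 0.00657), was called in every such fit, but at -0.35 (adjusted p = 0.275) with effective-length offsets. Its TPM in shUSP8_2 (3.57) was above all controls.

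The rises were fewer and most of them were small. Zfp36, or tristetraprolin, is a CCCH rather than a C2H2 protein, which binds AU-rich elements and brings about the decay of inflammatory messenger RNAs. Its expression was 85.4, 85.4 and 81.7 CPM in shCtrl and 109, 106 and 108 CPM in shUSP8. The groups were far apart for their spread (log2 fold change 0.36, SE 0.05, adjusted p = 0.000128), and the rise was called in every fit that left out a library. Zfp142 was 21.3, 22.7 and 21.2 CPM in shCtrl and 26.8, 25.7 and 29.0 CPM in shUSP8 (1.25-fold higher, adjusted p = 0.00396), and was called in all of those fits too. Unlike Zfp36, Zfp142 was not called by limma on log2(TPM + 1) (adjusted p = 0.0503) or by edgeR with effective-length offsets (0.0696). Zfp469, whose human counterpart is mutated in brittle cornea syndrome, was 48.0, 51.6 and 39.8 CPM in shCtrl and 59.4, 77.0 and 69.1 CPM in shUSP8. It had the largest rise of the 9 (0.56, SE 0.12, adjusted p = 0.0138), lost in 1 of the 6 fits (adjusted p = 0.0501). Zfp28, near the TPM threshold, was at 0.45 (adjusted p = 0.0102), Zfp771 at 0.34, Zfp668 at 0.25, Zfp408 (a gene of retinal vessels) at 0.23 and Zfp346 (a double-stranded RNA binder) at 0.20. Of the 6 fits that left out a library, Zfp28 was called in 5, Zfp668 in 2, Zfp771 and Zfp346 in 1 each and Zfp408 in 0. With the replicate number as a block, Zfp668 (adjusted p = 0.0534) and Zfp408 (0.0778) lost their calls. Zfp646, at 0.17, was the remaining rise and is named outside the rule.

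The most abundant members split between falls and no call. Zfp91, a ubiquitin ligase of the non-canonical NF-kB pathway, was 183, 202 and 221 CPM in shCtrl and 153, 157 and 162 CPM in shUSP8. Its groups did not overlap (log2 fold change -0.36, SE 0.07, adjusted p = 0.00117), and the call held whichever library was left out. By limma on log2(TPM + 1) Zfp91 was at -0.23 and not called (adjusted p = 0.0668). Zfp263 was 110, 106 and 104 CPM in shCtrl and 88.5, 95.5 and 92.1 CPM in shUSP8 (1.16-fold lower, adjusted p = 0.00697), but was at -0.07 on log2(TPM + 1). Zfp106, Zfp207 and Zfp710 were at -0.00, -0.01 and -0.00 with overlapping groups, and at 0.09, 0.10 and 0.18 on log2(TPM + 1). Zfp330, a nucleolar protein without a C2H2 match, was at -0.07 and there at 0.09.

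Among other members of known role, Zfp143 (an activator of small nuclear RNA and messenger RNA promoters) was at -0.19 (adjusted p = 0.0378) and Zfp148 (ZBP-89, a GC-box factor) at -0.23 (adjusted p = 0.0341). The groups of each did not overlap in CPM, but Zfp148 was at 0.02 on log2(TPM + 1). Of the 6 fits that left out a library, Zfp143 was called in 1 and Zfp148 in 2, and Zfp143 lost its call with the replicate number as a block (adjusted p = 0.0693). Zfp809, which silences murine leukaemia virus DNA through TRIM28, was 19.7, 19.2 and 20.9 CPM in shCtrl and 16.1, 18.7 and 18.5 CPM in shUSP8. Every knockdown library was lower, but the difference was not called (-0.17, SE 0.08, adjusted p = 0.132). Zfp217, a partner of corepressor complexes, was at 0.10 (adjusted p = 0.251), and at 0.44 on log2(TPM + 1) (adjusted p = 0.0272). Zfp281 (a pluripotency factor), Zfp622 (of 60S ribosome maturation) and Zfp706 were at 0.09, -0.03 and -0.05, and none was called. With library totals alone Zfp622 and Zfp706 turned to 0.04 and 0.03.

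Protein features that the rule did not use were compared as well. In translated GENCODE M21 transcripts (GRCm38), 187 of the 191 members with a coding transcript held at least 1 C2H2 match (cysteine, 2 to 4 residues, cysteine, 12 residues, histidine, 3 to 5 residues, histidine). The 4 without were Zfp36, Zfp330, Zfp703 and Zfp839. Members numbered 900 or above had a median of 11 fingers (range 6 to 21), and those below 900 a median of 9. A pattern written for the KRAB A box was matched in 17 of the 18, all but Zfp956, and in 59 of the 174. It was also found in 0 of 41 Zbtb, 0 of 16 Klf and 0 of 19 Zscan genes. Of 11 Zkscan genes, a family named for KRAB and SCAN domains, only 1 matched. The pattern can therefore miss much of such a family, and a gene without a match may still have the domain. The pattern was added after the values had been seen.

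Members with the KRAB-like match had a lower median than the rest, also below 900. Of 76 with a match, 14 fell, 1 rose and the median was -0.19. Of 115 with a coding transcript and no match, 21 fell, 7 rose and the median was -0.03. Among the 59 with a match below 900, 9 fell, 1 rose and the median was -0.18. The share that fell was 18.4% with a match and 18.3% without, both near the 16.8% of expressed genes. The share that rose was 1.32% and 6.09%, both below the 16.4% of expressed genes. Of the 59 below 900, 15.3% fell and 1.69% rose. Members with a match also had fewer reads, with a median expected count of 139 against 417. The shUSP8_1 library was the lowest of 6 in 46 of the 76 (60.5%) and in 39 of the 115 (33.9%).

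Base composition moved with these groups. The median GC of the transcripts was 40.9% for members numbered 900 or above, 49.1% below 900 and 48.5% over all members. In the 30 members under 42% GC, 10 fell and the median was -0.37. By edgeR 0 rose, 0 were higher at an unadjusted p under 0.05, DESeq2 called 0 rises and limma on log2(TPM + 1) called 1, while of the 765 expressed genes under 42% GC 149 fell (19.5%), 52 rose (6.80%) and the median was -0.11. In the 54 members from 54% GC upward, 3 fell, 7 rose and the median was 0.05, against 0.02 in expressed genes of that range. Of those expressed genes 20.4% rose and 15.5% fell, so the share of members was smaller for rises and for falls. The medians in shUSP8_1 were -0.79 for members and -0.19 for expressed genes under 42% GC, and 0.04 and 0.05 from 54% GC upward. Under 42% GC that library was the lowest for 83.3% of members and 50.8% of expressed genes. In shUSP8_2 and shUSP8_3 the members under 42% GC were at -0.26 and -0.16, and the expressed genes at -0.06 and -0.04. In each GC range under 50% the members lay below the expressed genes in all 3 knockdown libraries. The medians with and without the KRAB-like match were -0.44 (21 members) and -0.23 (9) under 42% GC, and -0.21 (25) and -0.09 (19) from 42% to 46%. From 46% to 50% the order turned, at -0.09 with a match (1 of 17 fell) and -0.15 without (6 of 18 fell), where 18.1% of expressed genes fell. They were -0.02 (9) and 0.00 (20) from 50% to 54%, and 0.06 (4) and 0.04 (50) above, so the lower median with a match did not hold in every GC range. The part of GC in the difference at Zfp900 was not tested.

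**Figure D4:**
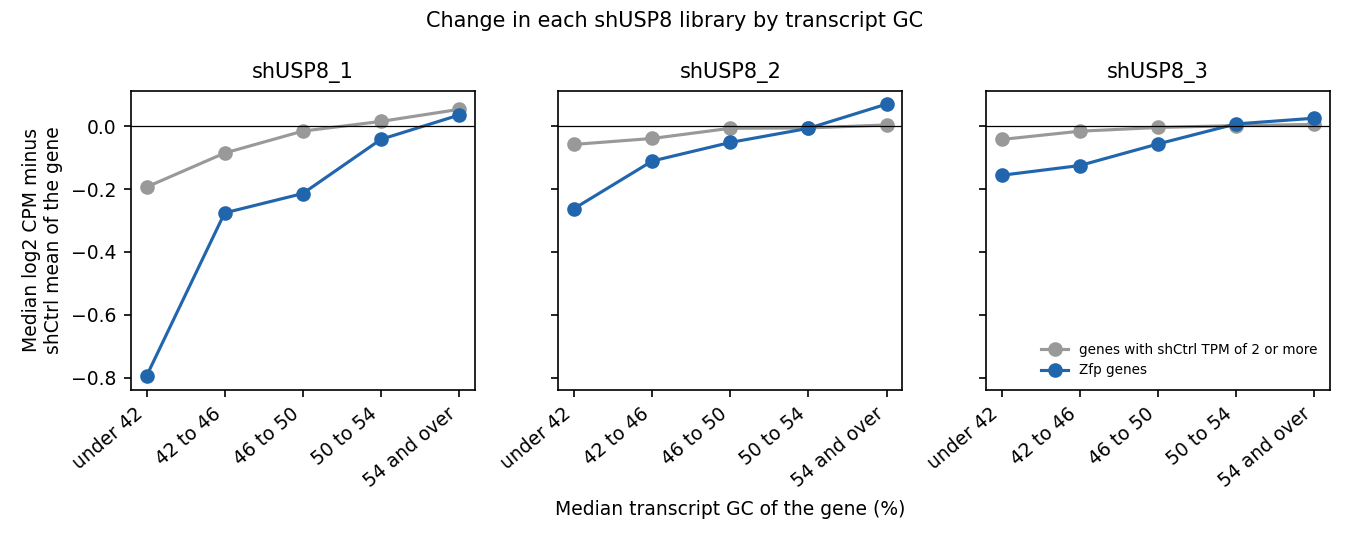
Median log2 CPM minus the shCtrl mean, by transcript GC in 5 ranges, for members (blue) and all genes tested with at least 2 TPM in shCtrl (grey), in each shUSP8 library. Both lines are lowest under 42% GC, and the member line is lowest in shUSP8_1, at -0.79.

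Fragment length and shared reads also differed. The mean fragment length was 300 to 309 nt in shCtrl, and 292, 368 and 302 nt in shUSP8_1 to shUSP8_3, from the relation of count, TPM and transcript length across 505 genes that have 1 transcript each. With effective-length offsets the median of the 18 was -0.35 with 3 falls (11.2% of expressed genes fell). It was -0.29 with 1 fall when shUSP8_1 was left out as well (10.9%). Expected counts that were not whole, as arise where reads fit several genes or transcripts, occurred in 9 of the 18 (50.0%), in 38 of the 174 (21.8%) and in 30.2% of expressed genes. Zfp973, Zfp931 and Zfp971 were among them, so the values of these similar genes are uncertain.

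Runs of neighbouring Zfp genes differed in their medians, which were not tested. In all, 96 of the 192 members lay in 18 runs of at least 3 members with gaps of at most 1 Mb. These 96 held 18 falls (18.8%), 5 rises (5.21%) and a median of -0.14. The 96 outside held 17 falls (17.7%), 4 rises (4.17%) and -0.04. Falls were therefore about as frequent inside as outside. Both shares were near the 16.8% of expressed genes that fell, while 16.4% of expressed genes rose. The lowest run was on chromosome 17 from 21008903 to 22456689 and held Zfp160, Zfp54, Zfp51, Zfp53, Zfp52, Zfp948, Zfp229, Zfp942 and Zfp946. Of these 9, 3 fell (33.3%, Zfp52, Zfp948 and Zfp946), 8 were negative and the median was -0.51. The shUSP8_1 library was the lowest in all 9, with a median of -1.08, against -0.24 and -0.29 in shUSP8_2 and shUSP8_3. Zfp53, at 5.82, 6.52 and 5.53 CPM in shCtrl and 4.29, 6.08 and 7.91 CPM in shUSP8, was the one exception (0.03).

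Shares within single runs, which hold few genes, stand beside 16.8% of expressed genes that fell and 16.4% that rose. A second chromosome 17 run, from 32765496 to 33631779, had 8 members, 3 falls (37.5%, Zfp472, Zfp101 and Zfp81) and a median of -0.27. The 4 members of a chromosome 13 run from 67387905 to 67729173 were all negative, with Zfp748 called (25.0%) and a median of -0.40. On chromosome 7, which carried 50 members, the run from 29768552 to 30169750 held 11, of which Zfp420, Zfp84, Zfp383 and Zfp260 fell (36.4%). Another run there, from 127233061 to 127885996, held 9, of which Zfp771, Zfp668 and Zfp646 rose (33.3%) and Zfp768 fell (11.1%). Its median was 0.07, so falls did not prevail in every cluster.

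**Figure D5:**
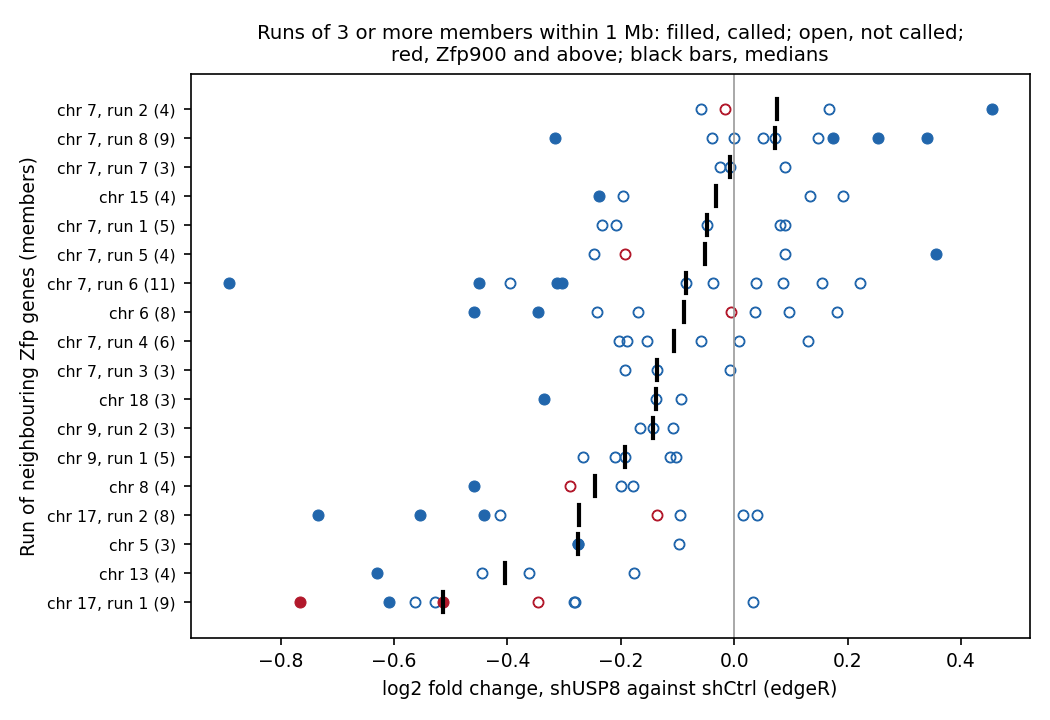
Log2 fold change of each member in 18 runs of neighbouring Zfp genes, ordered by the median (black bar), with the chromosome and number of members beside each run. Filled points are called and red points are numbered 900 or above, and the run medians go from -0.51 to 0.08.

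Genes of the corepressor machinery that KRAB zinc finger proteins use were set beside the members. Of 40 such genes 39 were tested, 3 rose (7.69%), 6 fell (15.4%) and the median was 0.03. The share that fell was near the 16.8% of expressed genes, and 16.4% of those rose. Trim28 was 187, 190 and 189 CPM in shCtrl and 198, 205 and 196 CPM in shUSP8, higher in every knockdown library but not called (0.08, adjusted p = 0.203). Setdb1 was at -0.01 (adjusted p = 0.893) with overlapping groups, and at 0.12 on log2(TPM + 1). Chd3, a NuRD remodeller, was 227, 228 and 228 CPM in shCtrl and 180, 181 and 188 CPM in shUSP8 (-0.32, adjusted p = 0.000246). Chd4, of the same complex and at a higher level (mean 453 CPM in shCtrl), was at 0.08 and not called (adjusted p = 0.260). The deacetylase Hdac2 was at -0.25 (adjusted p = 0.00125), while the H3.3 chaperone Daxx was at 0.33 (adjusted p = 0.00251) and Morc2a, of HUSH silencing, at 0.25 (adjusted p = 0.00582). These 4 calls held whichever library was left out, but on log2(TPM + 1) Daxx alone of the 4 was called. With effective-length offsets Daxx was at 0.14 (adjusted p = 0.216) and Morc2a was not called (adjusted p = 0.0700).

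Other zinc finger families were set beside the members in the same fit, in which 17.8% of all genes tested rose and 14.9% fell. Of 36 Zbtb genes tested, which join fingers to a BTB domain, 2 rose and 4 fell with a median of -0.05, and Zbtb4 (-0.47) and Zbtb42 (-0.49) were the falls of smallest p. Of 17 Zscan and Zkscan genes, 2 rose and 5 fell with a median of -0.16, and Zscan29 (0.56) and Zscan20 (0.50) were the rises. Of 11 Klf genes, 1 was called (Klf6, a fall at -0.23). Of 22 Zfp symbols with a letter after the number, 3 rose, among them Zfp385a (0.43), and 4 fell, among them Zfp119b (-1.22, under 60 expected counts in every library). Of 20 CCCH genes, 1 rose (Zc3h7b, 0.33) and 4 fell, among them Zc3h12d (-0.39). Of the 93 Zfp symbols under the TPM threshold that were tested, 7 rose, 4 fell and the median was -0.17. Low control values chose these symbols, so their split is a description only. In every set of this paragraph the share that rose was below that of all genes tested. The share that fell was above it for Zscan and Zkscan, lettered Zfp and CCCH genes, and below it for the others. Most of these sets are small, and the differences were not tested.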

How the data were processed

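Expected counts and TPM were read from a pair of tables of the whole series. In the first, the deposited expected counts estimate the fragments of each gene and need not be whole. In the other, the TPM values, as deposited, are scaled by effective length to the same sum per library. RSEM, DESeq2 1.28.1 and mm10 appear, without roles, in the submitters' processing notes. For the aligner and the annotation release nothing is given in the sources used here. Reads were 150 bp pairs from a DNBSEQ instrument, per the labels' protocols. Columns named WT were taken as shCtrl and those named KO as shUSP8, by genotype label and replicate number.

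The main test was edgeR's robust quasi-likelihood test (edgeR 4.0.16 in R 4.3.3) of rounded expected counts with TMM scaling. It covered the 12440 genes that passed filterByExpr at a count of 10 and a total of 15, with Benjamini-Hochberg adjustment over all of them. SE is the absolute log2 fold change over the square root of F. Ratios to the shCtrl mean use log2 CPM with a prior count of 2. Alternatives were DESeq2 1.42.0, limma 3.58.1 on log2(TPM + 1) or log2(TPM + 0.1) with or without a filter at a mean of 0.5 TPM, other scalings, no count filter, offsets from expected count over TPM, a replicate block, each library left out, and other thresholds and splits. The edgeR step was tested on simulated data.

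Transcript features came from GENCODE M21 (GRCm38), where 98.7% of the table's transcript identifiers were found, and promoters from RefSeq (GRCm38.p6). Members, gene lists and rules were chosen with earlier results of these data known. The rule names called members numbered 900 or above, the 8 largest rises and falls below 900 without overlap, the 6 highest in TPM, and 10 fixed members. It also names those beside the threshold, Trim28, Setdb1 and 4 other corepressor genes, and 2 genes for each other family. Other names were chosen after their values were seen. All pairs of libraries within a group differed by more than sampling noise (chi-square per gene 2.25 to 18.0).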

Additional observations from a re-analysis of the deposited data

How the results depend on the processing

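With each of the 6 libraries left out in turn, 12 of the 35 falls and 2 of the 9 rises were called every time, so most calls depended on at least 1 library. Against 9 rises and 35 falls, rises numbered 16 with library totals, 3 with DESeq2, 3 on log2(TPM + 1) without a filter, 3 to 12 with 1 library left out, 4 for members of at least 5 TPM and 14 for those of at least 2 TPM in shUSP8. Falls numbered 16 with library totals, 4 on log2(TPM + 1), 3 on log2(TPM + 0.1), 0 without the filter, 18 with offsets, 13 with offsets and no shUSP8_1, 13 to 38 with 1 library left out and 19 for members of at least 5 TPM. The count of 0 comes from limma. The median of the members was -0.01 with library totals, 0.02 on log2(TPM + 1) with or without the filter and 0.03 on log2(TPM + 0.1). From Zfp900 upward, 3 fell with library totals, DESeq2, log2(TPM + 1) or offsets, 2 on log2(TPM + 0.1) or split at 950, 0 without the TPM filter, 1 with offsets and no shUSP8_1 or at 5 TPM, and 1 to 4 with 1 library left out. The median below 900 was 0.02 with library totals, 0.05 on log2(TPM + 1) with or without the filter and 0.06 on log2(TPM + 0.1). Of 39 corepressor genes, 10 rose with library totals (24.6% of expressed genes did), 1 with offsets (10.9%) and 0 with offsets and no shUSP8_1 (10.1%). Corepressor falls numbered 2 with library totals (10.4%), 0 on each TPM setting (3.0% to 4.17%) and 3 to 6 with 1 library left out (11.3% to 18.8%). No background share was computed for the other choices of members. The median of all expressed genes moved as well, from -0.01 in the main fit to 0.06 with library totals and 0.11 on log2(TPM + 1). The cause was not tested for any of these settings.

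Genes near 0 changed sign, and so did Zfp148, a called fall at -0.23. With library totals Zfp106, Zfp207, Zfp710, Zfp330, Zfp622, Zfp706 and Setdb1 were at 0.07, 0.06, 0.07, 0.01, 0.04, 0.03 and 0.06. On the 3 TPM settings Zfp106 was at 0.09, Zfp207 at 0.10 to 0.11, Zfp710 at 0.18 to 0.19, Zfp330 at 0.09, Zfp148 at 0.02, Zfp622 at 0.08 and Setdb1 at 0.12. Zfp710 was at 0.06 with offsets, and with offsets and no shUSP8_1 Zfp106, Zfp207, Zfp710, Zfp148 and Setdb1 were at 0.03, 0.00, 0.05, 0.01 and 0.02. With 1 library left out the ranges were -0.05 to 0.04 for Zfp106, -0.03 to 0.02 for Zfp207, -0.01 to 0.02 for Zfp710 and -0.05 to 0.03 for Setdb1.

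No label says whether replicate numbers pair the libraries. Deviations of same-numbered libraries correlated at -0.01, 0.08 and -0.05, and those of other pairs at -0.12 to 0.12. With 3 libraries in each group these values cannot decide whether libraries were paired. A fit with the replicate number as a block gave 7 rises, 33 falls, a median of -0.09 and 6 falls from Zfp900 upward. No background share was computed for that fit, so its counts are a description only.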
